A study of Rattus norvegicus with 16 samples.

Results

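The miR-30 family guide strands are the 5 rat microRNAs rno-miR-30a, rno-miR-30b-5p, rno-miR-30c, rno-miR-30d and rno-miR-30e, taken by these names from the 350 rat microRNAs on the array. The star (passenger) strands of the same hairpins were left out of the family and are described separately. Each array was a 1-colour Agilent rat microRNA array read for a pool of RNA from 3 rats, and 4 groups of 4 pools gave 16 arrays. All 24 rats were male Sprague-Dawley animals that were kept without water for 3 days and then received furosemide, a loop diuretic, at 10 mg/kg into muscle. In the 12 rats of the contrast-induced acute kidney injury (CI-AKI) group, Omnipaque (iohexol, an iodinated X-ray contrast medium) with 350 mg of iodine per ml was given through a tail vein at 10 ml/kg over 5 min. The 12 control rats received the same volume of normal saline, so dehydration and furosemide were common to both groups. Kidney and blood plasma were taken 8 h later, which gave the groups kidney CI-AKI, kidney control, plasma CI-AKI and plasma control. Both tissues were taken from the same 24 rats, so kidney and plasma are not independent, and no label says which kidney pool matches which plasma pool.

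A microRNA is cut from a hairpin precursor as a pair of strands, of which the guide strand is usually the one loaded into the silencing complex. The seed, a short stretch near its 5′ end, pairs with target mRNAs and lowers their output, so microRNAs with one seed share many targets. The miR-30 family is abundant in kidney epithelium, in podocytes as well as tubules, and in the frog pronephros it is needed for normal kidney formation. Among known targets, miR-30a represses Beclin 1, a starter of autophagy, in human cells. MiR-30c represses connective tissue growth factor in the rodent heart. MicroRNAs are also found in plasma, inside vesicles or bound to proteins, and the comparison asked whether the levels in kidney and plasma differ shortly after contrast medium. Both miR-30a and miR-30e were among the plasma microRNAs the study followed up as candidate markers.

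The mature sequences show what the members share and where they differ. RefSeq's table for the GRCr8 build holds 3 of the 5 members, and these are printed 5′ to 3′ with the seed, bases 2 to 8, in capitals.
miR-30a: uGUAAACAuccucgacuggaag
miR-30e: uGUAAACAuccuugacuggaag
miR-30c: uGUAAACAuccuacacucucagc
The seed GUAAACA was the same in all 3, and 4 of the 692 distinct mature rat sequences in the table carried it, the other one being miR-384-5p. Counting from 1 at the 5′ end, miR-30a and miR-30e differed at 1 of 22 bases (C13U). MiR-30a and miR-30c differed at 5 of the 22 bases they both have (C13A, G14C, G18C, G19U and A20C). MiR-30a lies at chr9:33233946-33233967 on the plus strand, and no annotated gene other than its own hairpin spans it. MiR-30e lies at chr5:139637504-139637525 on the minus strand, within the limits of the gene Nfyc, which codes for a subunit of the transcription factor NF-Y. MiR-30c comes from Mir30c1 and Mir30c2, whose mature sequences are identical, so a signal for miR-30c is the sum of both. Mir30c1 (mature strand at chr5:139634505-139634527, minus strand) lies 2906 bases from the Mir30e hairpin, also within Nfyc. Mir30c2 (mature strand at chr9:33253695-33253717, plus strand) lies 19670 bases from the Mir30a hairpin, within a long noncoding RNA and a pseudogene.

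All 5 members were detected on all 16 arrays, none was saturated, and each was read by 2 probes with 10 spots per probe. Signals were divided by a high percentile of each array, the 75th, over the microRNAs detected on all arrays scaled together, and are given as scaled signal in arbitrary units. Levels of different microRNAs were not set against each other, because probes differ in brightness.

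Some arrays stood apart. Total microRNA signal per array ranged from 59735 to 124853 in kidney CI-AKI, 89065 to 119803 in kidney control, 7068 to 109432 in plasma CI-AKI and 3484 to 123239 in plasma control. The pool 4 arrays of both plasma groups were weak, with 95 microRNAs detected in CI-AKI pool 4 and 84 in control pool 4, against 156 to 211 on the other 6 plasma arrays. A synthetic RNA added before labelling read 164 and 51.8 there, against 928 to 3155 on the others. Before scaling, the members' signals were 14.5 to 36.5 in CI-AKI pool 4 and 7.08 to 28.2 in control pool 4, so plasma results are also given without these arrays. Each sample label also has a letter code. Of the 8 letters, each used once per tissue, 6 carry opposite treatments in kidney and plasma and 2 the same treatment. No label explains the letters, so the direction of every treatment comparison rests on the labelled groups. Kidney arrays lay on slide 2 and plasma arrays on slide 1, so tissue and slide cannot be told apart. On both slides CI-AKI arrays filled the even columns and control arrays the odd ones, so treatment and column cannot be told apart either.

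The kidney epithelium list (10 microRNAs, among them miR-192, miR-194 and the miR-200 family) summed to 4086 to 4313 scaled units per array in kidney CI-AKI and 3856 to 4255 in kidney control, against 947 to 1660 in plasma CI-AKI and 1201 to 1649 in plasma control. The red cell list (miR-451, miR-144 and miR-16) summed to 830 to 877 in kidney CI-AKI and 792 to 898 in kidney control, against 5275 to 17190 and 7882 to 11565 in the plasma of CI-AKI and control rats. The white cell list (4 microRNAs on the array) summed to 222 to 286 and 244 to 281 in the kidneys of CI-AKI and control rats. In the plasma of these rats it summed to 3229 to 7231 and 4724 to 6231. The liver microRNA miR-122 was at or near 0 in kidney (0 to 1.07) and reached 689 to 6188 in plasma CI-AKI and 2174 to 4283 in plasma control. The platelet list (3 microRNAs) summed to 667 to 708 in kidney CI-AKI and 661 to 712 in kidney control, against 1506 to 5377 in plasma CI-AKI and 3485 to 4370 in plasma control. Its 2 tested members split in both treatments, with miR-223, also on the white cell list, called lower in kidney and miR-126 called higher. The stromal and smooth muscle list (miR-143, miR-145, miR-199a-3p and miR-214) summed to 566 to 676 in kidney CI-AKI and 582 to 696 in kidney control, against 761 to 2516 in plasma CI-AKI and 1435 to 2629 in plasma control. In both treatments 4 of 4 were called lower in kidney, against 46.4% of all tested in CI-AKI rats and 44.4% in control rats. The endothelial pair split, with miR-126 called higher in kidney in both treatments and miR-126* called lower in control rats. On this scale the kidney epithelium list was thus higher in kidney and the red and white cell lists higher in plasma. The platelet list split, and stromal microRNAs were lower in kidney. The part of these lists in the members' differences was not tested.

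**Figure D1:**
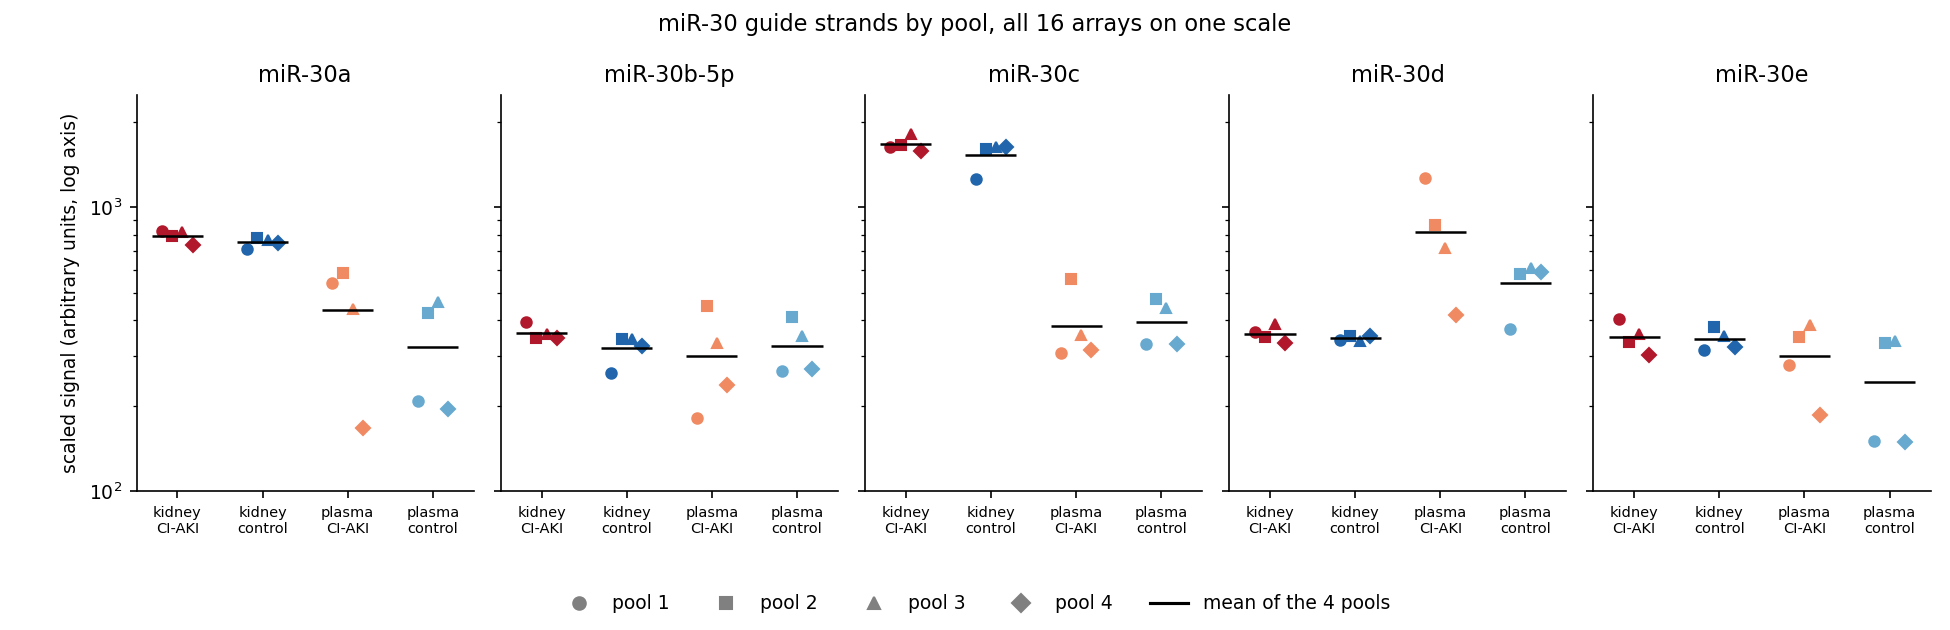
Scaled signal of each member (log axis, arbitrary units) in every pool, with all 16 arrays on one scale. Points are pools of 3 rats, bars are means of 4 pools, and levels can be compared between groups within a panel but not between panels; miR-30c sits at 1256 to 1813 in kidney and 306 to 558 in plasma, while miR-30d sits at 334 to 388 in kidney and 373 to 1269 in plasma.

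In kidney, the members were within a narrow range in both treatments, and none passed the test after contrast medium. Over pools, the coefficient of variation of a member was 2.43% to 12.0% in kidney CI-AKI and 2.23% to 11.9% in kidney control. The values that follow are scaled within kidney.

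MiR-30a had 1743, 1639, 1621 and 1592 scaled units in the 4 kidney CI-AKI pools, against 1516, 1628, 1633 and 1480.2 in the 4 kidney control pools. The groups overlapped, with CI-AKI pool 1 the highest and control pool 4 the lowest. MiR-30e, which differs from miR-30a by 1 base, had 853, 692, 711 and 652 in kidney CI-AKI and 671, 788, 749 and 640.0 in kidney control. Its groups overlapped over most of their range.

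MiR-30c had 3440.4, 3444, 3590.5 and 3398 in the CI-AKI kidneys and 2669, 3350.5, 3464 and 3233 in the control kidneys. One low pool, control pool 1, set most of the control group's spread (3179 ± 353, SD, n = 4), while the CI-AKI pools lay close together (3468 ± 84.1). MiR-30b-5p, which in human melanoma represses a glycosyltransferase, had 833, 716, 707 and 746 in kidney CI-AKI and 557, 713, 731 and 646 in kidney control. Control pool 1 was again the lowest and CI-AKI pool 1 the highest. MiR-30d had 767, 724, 767 and 719 in kidney CI-AKI and 728, 732, 719 and 696 in kidney control, the tightest of the 5 in the control pools.

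The log2 difference, CI-AKI minus control, was 0.076 for miR-30a (95% interval -0.067 to 0.22), 0.19 for miR-30b-5p (-0.037 to 0.41) and 0.13 for miR-30c (-0.064 to 0.33). It was 0.050 for miR-30d (-0.079 to 0.18) and 0.028 for miR-30e (-0.20 to 0.26). In limma's moderated test over all 176 kidney microRNAs, 0 of 5 members passed (Benjamini-Hochberg adjusted p = 0.917 for 4 members and 0.957 for miR-30e), and at an unadjusted p under 0.05 the count was also 0. In the same test 3 of 176 microRNAs, or 1.7%, were called, and 6.25% had an unadjusted p under 0.05. The upper bounds of the intervals correspond to rises of at most 0.41 on the log2 scale, and the lower bounds to falls of at most 0.20. With this scaling all 5 means were higher in CI-AKI. MiR-30e was lower, however, after quantile normalization, without scaling, scaled to the labelling spike-in and in the authors' processed values. Both miR-30d and miR-30e were lower where every microRNA was read by its brightest probe and the arrays were rescaled on those values. With the scaling used, both probes of miR-30d (0.052 and 0.048) and of miR-30e (0.022 and 0.030) were above 0. Among all tested microRNAs, 60.2% of mean differences were above 0, and their median difference was 0.028, against 0.076 for the members. No member's groups were separate, against 5.11% of all tested. The upper and lower slide rows gave 0.29 and 0.080 for miR-30b-5p, 0.20 and 0.062 for miR-30c, 0.11 and 0.047 for miR-30a, 0.030 and 0.070 for miR-30d and 0.079 and -0.024 for miR-30e, with 2 pools of each treatment per row. When each kidney array took the treatment of the plasma array with its letter, most arrays changed group, which by itself tends to turn signs. The 5 differences were then -0.096 to -0.014 and 0 of 5 passed.

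In plasma, the pools of one group differed far more than in kidney, and no member passed the test either. The coefficient of variation of a member was 26.1% to 44.0% in plasma CI-AKI and 19.99% to 45.3% in plasma control. These values are scaled within plasma.

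MiR-30a had 263, 262, 214 and 80.6 scaled units in the 4 plasma CI-AKI pools, against 101, 206, 234 and 94.2 in the 4 plasma control pools. CI-AKI pools 1 and 2 stood above every control pool, while the weak CI-AKI pool 4 stood below every one. MiR-30e had 135, 157, 186 and 89.3 in plasma CI-AKI and 73.0, 162, 169.8 and 72.2 in plasma control. Within the control group both microRNAs split in the same way, with pools 1 and 4 low and pools 2 and 3 high.

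MiR-30d, a repressor of autophagy genes in human tumour cells, had 616, 388, 351 and 202 in plasma CI-AKI, against 181, 283, 307 and 288 in plasma control. CI-AKI pools 1, 2 and 3 were above all control pools, and the weak CI-AKI pool 4 was above control pool 1 only. MiR-30c had 149, 249, 172 and 151 in plasma CI-AKI and 160.4, 232, 222 and 160.0 in plasma control. MiR-30b-5p had 88.0, 201, 162 and 114 in plasma CI-AKI and 128, 200.5, 177 and 131 in plasma control. For both, pool 2 was highest in CI-AKI and in control, and the groups overlapped.

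The log2 difference, CI-AKI minus control, was 0.34 for miR-30a (95% interval -0.69 to 1.37), 0.32 for miR-30e (-0.53 to 1.17) and 0.48 for miR-30d (-0.32 to 1.27). It was -0.11 for miR-30c (-0.72 to 0.49) and -0.21 for miR-30b-5p (-0.92 to 0.49), with a sign that turned for both under median scaling and in the authors' processed values, and for miR-30c also after quantile normalization. In limma's test over 96 plasma microRNAs, 0 of 5 members passed (adjusted p = 0.941 for 4 members and 0.953 for miR-30c), and 0 of 5 had an unadjusted p under 0.05. Of all tested, 0% were called and 5.21% had an unadjusted p under 0.05. Mean differences were above 0 for 3 of 5 members against 40.6% of all tested, and the median difference was 0.32 for the members and -0.086 for all. Without the pool 4 array of both groups the differences were 0.78 for miR-30a, 1.06 for miR-30d, 0.58 for miR-30e, 0.13 for miR-30c and 0.032 for miR-30b-5p, and again 0 of 5 passed (adjusted p = 0.206 to 0.950). The slide rows disagreed, with 0.86 and -0.18 for miR-30a, 1.11 and -0.16 for miR-30d, 0.42 and 0.22 for miR-30e, -0.0041 and -0.22 for miR-30c and -0.27 and -0.16 for miR-30b-5p in the upper and lower row. For miR-30a, miR-30d and miR-30e the intervals hold a log2 rise of 1 as well as a fall, so neither is excluded by these pools. When each plasma array took the treatment of the kidney array with its letter, most arrays likewise changed group. The differences of miR-30a, miR-30d and miR-30e were then -0.45, -0.73 and -0.17.

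**Figure D2:**
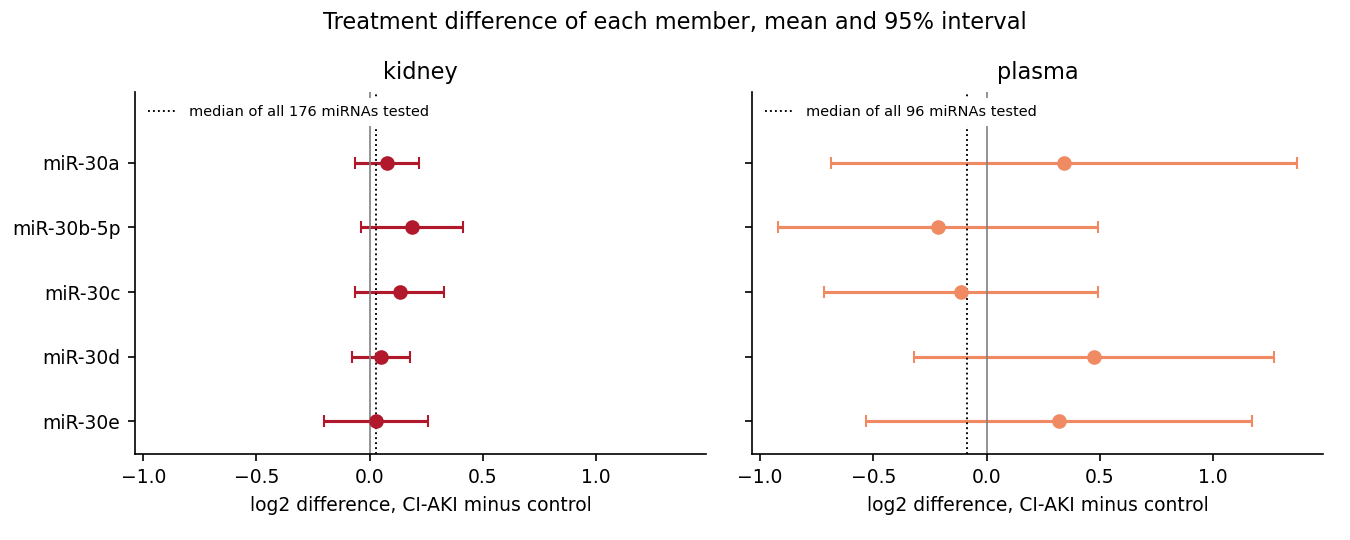
Log2 difference of each member, CI-AKI minus control, in kidney and in plasma; points are means of 4 pools against 4, bars are 95% intervals from limma, and the dotted line is the median of all microRNAs tested. Every interval crosses 0, and those in plasma (up to 1.37) are wider than those in kidney (up to 0.41); some signs depend on the scaling, namely miR-30e in kidney and miR-30b-5p and miR-30c in plasma.

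Whether the treatment difference itself differed between tissues was tested in a fit of all 16 arrays. The kidney difference minus the plasma difference was -0.31 for miR-30a, 0.36 for miR-30b-5p, 0.20 for miR-30c, -0.47 for miR-30d and -0.34 for miR-30e. In limma's test 0 of 5 passed (adjusted p = 0.929 for each), with 0 of 5 at an unadjusted p under 0.05, against 1.15% of the 87 microRNAs tested called and 3.45% at an unadjusted p under 0.05. The widest interval, for miR-30a, ran from -1.36 to 0.74.

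Between the tissues the members parted. MiR-30c was higher in kidney than in plasma in both treatments, miR-30a was higher to a lesser degree, and miR-30d was the member that stood lowest in kidney relative to plasma. The values that follow are on the scale of all 16 arrays. Every member spread more over plasma pools than over kidney pools in both treatments. For miR-30a the log2 SD was 0.84 in plasma CI-AKI against 0.071 in kidney CI-AKI, and 0.66 against 0.059 in the control groups. Limma's test takes a single variance per microRNA for both tissues, so its tissue intervals may be too narrow and its p-values too small. A test with unequal variances was not run. In whole tissue, more cells that make a microRNA and more RNA per cell cannot be told apart, and plasma holds no tissue cells to compare with.

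MiR-30c had 1628, 1665, 1813 and 1579.7 scaled units in the CI-AKI kidneys, against 306, 558, 354 and 314 in the plasma of CI-AKI rats. In control rats it had 1256, 1613, 1635 and 1632 in kidney and 331, 477, 441 and 330.3 in plasma. Every kidney pool was above every plasma pool. The log2 difference, kidney minus plasma, was 2.17 in CI-AKI rats (95% interval 1.64 to 2.70; limma, adjusted p = 2.01e-05) and 1.97 in control rats (1.57 to 2.37; adjusted p = 1.21e-05). With the scaling used, the kidney signal was thus 4.50 and 3.91 times that in plasma. Over 6 other scalings the log2 difference was larger, at 2.32 to 4.35 in CI-AKI rats and 2.23 to 4.00 in control rats.

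MiR-30a had 825, 792, 819 and 740.1 in CI-AKI kidneys and 541, 586, 440.2 and 167 in the plasma of those rats. Control rats had 714, 784, 771 and 747 in kidney and 209, 424, 466 and 194 in plasma. Again the groups were separate in both treatments. Its log2 difference was 1.02 in CI-AKI rats (0.17 to 1.87; limma, adjusted p = 0.0324) and 1.33 in control rats (0.62 to 2.04; adjusted p = 0.00418). In CI-AKI rats the slide rows gave 0.52 and 1.52. Leaving out any 1 of the kidney CI-AKI pools, or plasma CI-AKI pool 3, gave 1.002 to 1.08 with adjusted p = 0.0516 to 0.0736, so that call depended on each of these arrays. Without the weak plasma pool 4 the difference was 0.61 in CI-AKI rats and passed (adjusted p = 0.0132), and with normexp background correction it was 0.42 and did not pass (0.275).

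MiR-30d had 363, 349.8, 388 and 334 in CI-AKI kidneys, against 1269, 869, 722 and 419 in the plasma of CI-AKI rats. In control rats it had 342, 352, 339.5 and 351 in kidney and 373, 582, 611 and 594 in plasma. Within each treatment every plasma pool was above every kidney pool; across treatments kidney CI-AKI pool 3, at 388, was above plasma control pool 1, at 373. The log2 difference was -1.09 in CI-AKI rats (-1.80 to -0.37; limma, adjusted p = 0.0110) and -0.61 in control rats (-1.02 to -0.21; adjusted p = 0.0121), but this direction turned without scaling, where it was 1.09 and 1.42 and did not pass. Over 6 other scalings it passed in 2 in CI-AKI rats and in 1 in control rats, and in control rats it did not pass without plasma control pool 4 (-0.42, adjusted p = 0.0828).

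MiR-30e had 404, 335, 359 and 303 in kidney CI-AKI and 278, 351, 384 and 185 in plasma CI-AKI, with overlap. Kidney control pools had 316, 379, 354 and 323 and plasma control pools 151, 334, 338 and 149. MiR-30b-5p had 394, 346, 357 and 347 in kidney CI-AKI and 181, 451, 334 and 237 in plasma CI-AKI. In control rats it had 262, 343, 345 and 326 in kidney and 265, 413, 352 and 270.3 in plasma. The differences of miR-30e, 0.27 in CI-AKI rats (adjusted p = 0.359) and 0.61 in control rats (0.110), did not pass limma's test. In control rats it was 0.80 without plasma control pool 2 (adjusted p = 0.0470) and 0.81 without plasma control pool 3 (0.0437), and passed in both. Those of miR-30b-5p, 0.35 in CI-AKI rats (0.293) and -0.0096 in control rats (0.966), did not pass it either.

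In limma's test 3 of 5 members were called in CI-AKI rats and 3 of 5 in control rats, in each case miR-30a and miR-30c as higher and miR-30d as lower. The background was high, with 74.6% of 181 microRNAs called in CI-AKI rats and 77.5% of 178 in control rats, so these shares of the members were below it. In kidney 28.2% of all tested were called higher and 46.4% lower in CI-AKI rats, and 33.1% and 44.4% in control rats. The groups of 3 members did not overlap in either treatment, against 71.8% of all tested in CI-AKI rats and 78.7% in control rats. In the order of kidney signal relative to plasma, miR-30c came first, then miR-30a, and miR-30d last, with miR-30e and miR-30b-5p between them in either order. The intervals of miR-30e and miR-30b-5p overlapped in both treatments.

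**Figure D3:**
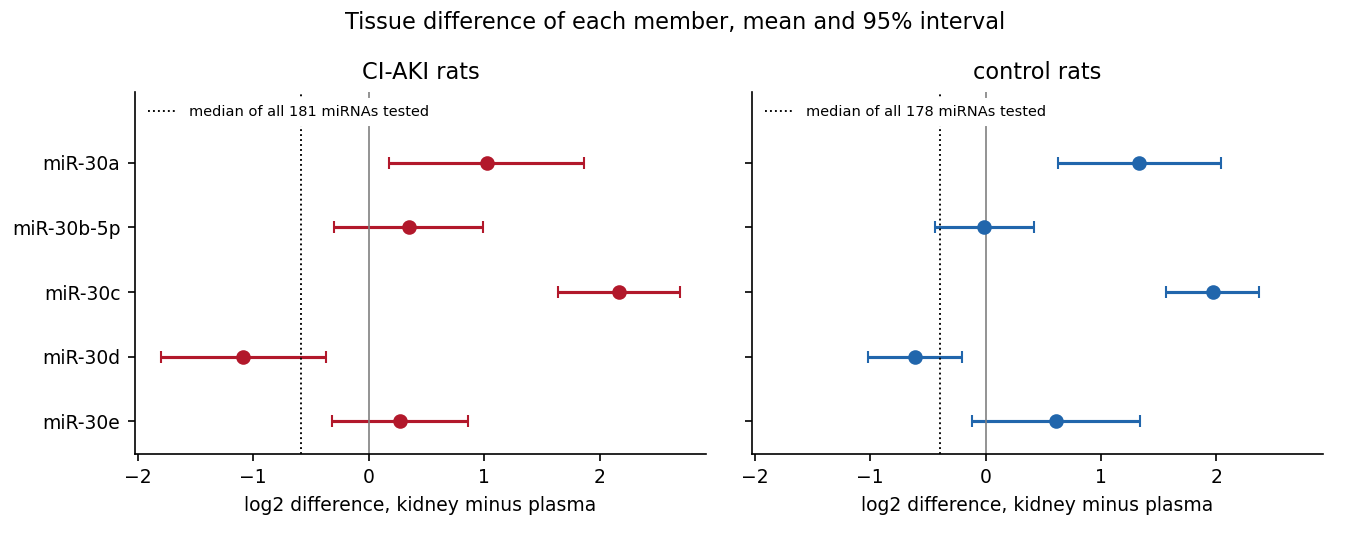
Log2 difference of each member, kidney minus plasma, in CI-AKI rats and in control rats, with 95% intervals from limma on 4 pools against 4; the vertical line marks 0 and the dotted line is the median of all microRNAs tested (-0.59 in CI-AKI rats and -0.40 in control rats). MiR-30c lies highest in both and miR-30d lowest, and the direction of miR-30d turns where arrays are not scaled.

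These differences shifted together with the way the arrays were scaled. With the scaling used, the difference of every member was lower than in each of 6 other scalings, in both treatments. Over those 6, miR-30a gave 1.16 to 3.20 in CI-AKI rats and 1.54 to 3.37 in control rats. MiR-30d gave -0.89 to 1.09 and -0.47 to 1.42. The median difference of all tested microRNAs was -0.59 in CI-AKI rats and -0.40 in control rats with the scaling used, and without scaling it was 1.48 and 1.36. Taken relative to that median, the difference of miR-30c was 1.79 to 2.87 in CI-AKI rats and 1.68 to 2.64 in control rats over 6 other scalings, and it passed limma's test in 6 of 6 in both. MiR-30a was 0.63 to 1.72 and 0.98 to 2.01 above the median and passed in 6 of 6 in CI-AKI rats and in 5 of 6 in control rats, where the unscaled values gave adjusted p = 0.0652. MiR-30d ranged from -1.42 to -0.38 relative to the median in CI-AKI rats and from -1.03 to 0.063 in control rats. MiR-30e was called as higher in kidney in 5 of 6 other scalings in control rats and in 3 of 6 in CI-AKI rats. For miR-30b-5p these counts were 3 of 6 and 4 of 6. The order, with miR-30c highest, miR-30a next and miR-30d lowest, was the same in all 7 scalings in both treatments.

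**Figure D4:**
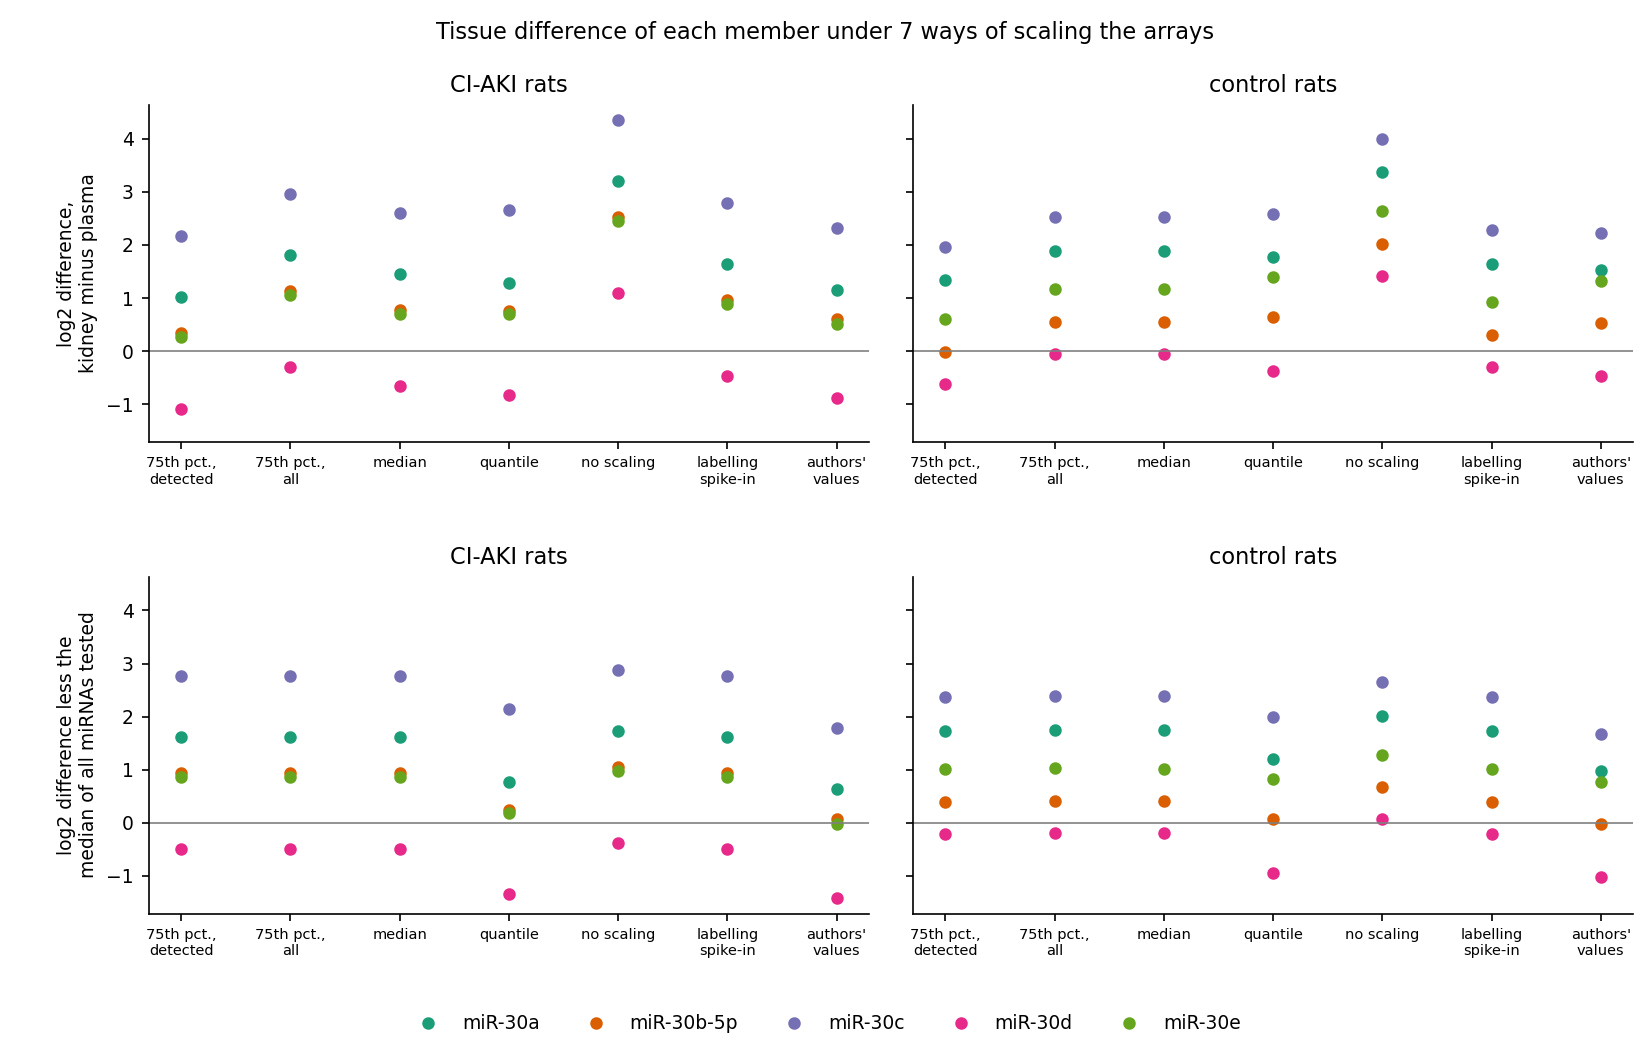
Log2 difference of each member, kidney minus plasma, under 7 ways of scaling the arrays; the upper panels show the difference itself and the lower panels the difference less the median of all microRNAs tested. The points of a scaling move together, as does the median of all tested (1.48 without scaling against -0.59 with the scaling used, in CI-AKI rats), and miR-30d is above 0 in the upper panels only without scaling.

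A ratio of one member to another within an array does not change when the array is divided by a constant. Quantile normalization and the authors' processed values can change it: in kidney, the differences of miR-30a and miR-30b-5p (CI-AKI minus control) were 0.076 and 0.19 with the scaling used, and 0.11 and 0.091 in the authors' values, where their order turned. A ratio says nothing of which member has more molecules, but a ratio that differs between groups shows that the members did not change in step. All 10 pairs were compared with a two-sided exact permutation test of 4 arrays against 4, whose smallest possible p is 0.0286. The p-values were adjusted over the ratios of all 2080 pairs of the 65 microRNAs detected on every array.

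In control rats the kidney and plasma arrays did not overlap for 10 of 10 pairs (exact p = 0.0286, adjusted p = 0.0363 for each), against 78.8% of all pairs. In CI-AKI rats this held for 8 of 10 pairs (exact p = 0.0286, adjusted p = 0.0387), against 73.8% of all pairs. In the authors' processed values the kidney and plasma arrays did not overlap for 6 of 10 pairs in CI-AKI rats and 8 of 10 in control rats; ratios after quantile normalization were not computed. With the scaling used, the exceptions in CI-AKI rats were miR-30a over miR-30b-5p (exact p = 0.143, adjusted 0.171), whose plasma CI-AKI pool 1 was above every kidney pool, and miR-30b-5p over miR-30e (exact p = 0.743, adjusted 0.775). The median size of the tissue difference was 1.39 over the member pairs and 2.08 over all pairs in CI-AKI rats, and 1.28 and 2.04 in control rats.

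The pair that parted most was miR-30c over miR-30d. Its log2 ratio was 2.16, 2.25, 2.23 and 2.24 in kidney CI-AKI and -2.05, -0.64, -1.03 and -0.42 in plasma CI-AKI, a difference of 3.25. In control rats it was 1.88, 2.19, 2.27 and 2.22 in kidney and -0.17, -0.29, -0.47 and -0.85 in plasma, a difference of 2.58. Over both treatments the ratio ran from 1.88 to 2.27 in kidney and from -2.05 to -0.17 in plasma.

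The pair with the lowest standard deviation in plasma, 0.19 over 8 arrays, was miR-30b-5p over miR-30c; the other pairs had 0.33 to 0.74. Its log2 ratio was -2.26, -2.23, -2.24 and -2.32 in kidney control and -0.32, -0.21, -0.33 and -0.29 in plasma control. The weak plasma control pool 4 lay within the range of the other plasma control pools. In CI-AKI rats it was -2.05, -2.27, -2.34 and -2.19 in kidney and -0.76, -0.31, -0.09 and -0.40 in plasma.

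MiR-30a over miR-30e, the pair with 1 differing base, was 1.18, 1.05, 1.12 and 1.21 in kidney control and 0.47, 0.34, 0.46 and 0.38 in plasma control. Hybridisation of one to the probes of the other was not tested. In CI-AKI rats the ratio was 1.03, 1.24, 1.19 and 1.29 in kidney, while in plasma it spread over 0.96, 0.74, 0.20 and -0.15. Its standard deviation in plasma was 0.51 in CI-AKI and 0.062 in control rats, a difference in spread that was not tested.

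Between the treatments, by contrast, 0 of 10 ratios were separate in kidney, against 4.24% of 13203 pairs, and 0 of 10 in plasma, against 1.78% of 2701 pairs. The smallest exact p was 0.114 in kidney, for miR-30b-5p over miR-30e (difference 0.16), and 0.143 in plasma, for miR-30b-5p over miR-30d (difference -0.69). Adjusted over all pairs, they were 0.910 and 1. No pair of microRNAs in either tissue, separate or not, had an adjusted p under 0.05, so after this adjustment even a separate member pair could not have passed. Without kidney control pool 4, or without plasma control pool 4, 1 of 10 pairs was separate in that tissue.

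**Figure D5:**
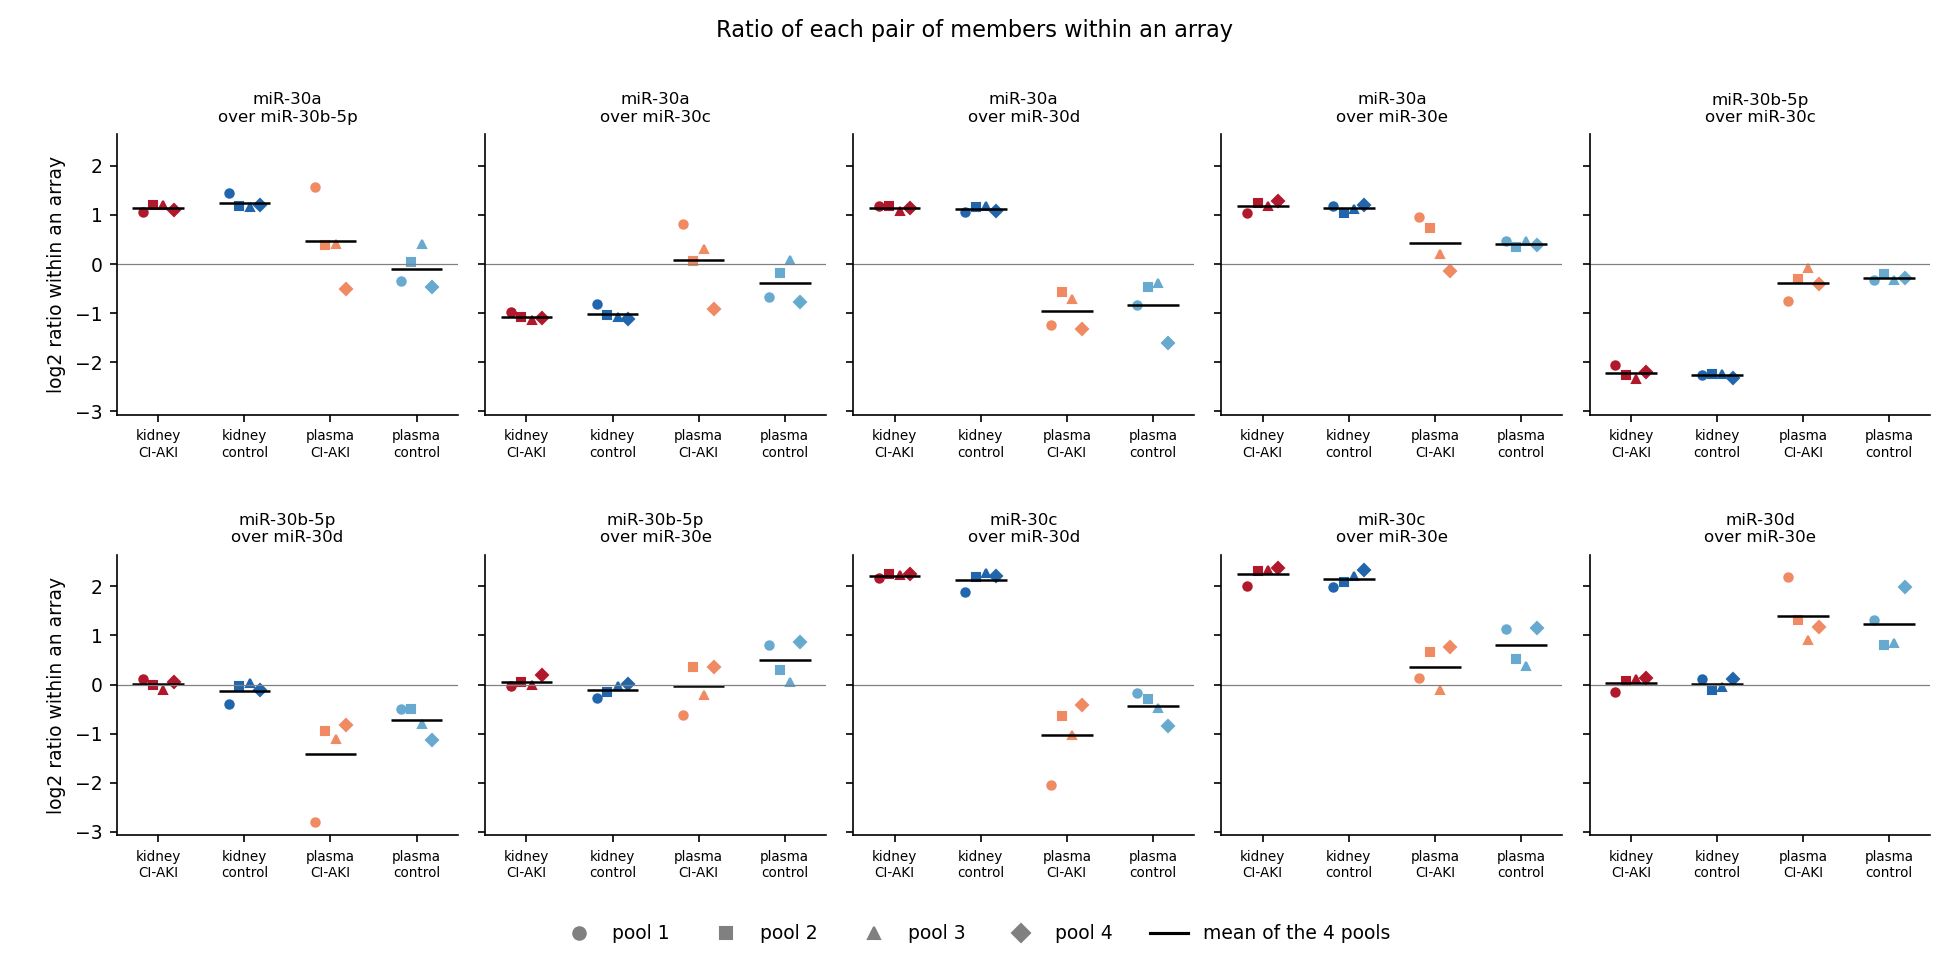
Log2 ratio of each pair of members within an array, by pool (points) with the mean of 4 pools (bars). Kidney pools of both treatments lie close together in every panel, plasma pools spread more widely in most, and miR-30c over miR-30d shows the widest step between the tissues (1.88 to 2.27 in kidney and -2.05 to -0.17 in plasma).

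Both probes of a member moved the same way for 5 of 5 members in kidney (CI-AKI minus control) and for 5 of 5 between the tissues in CI-AKI rats. They did so for 4 of 5 between the tissues in control rats, where miR-30b-5p was close to 0 with both probes (0.00085 and -0.011). In plasma (CI-AKI minus control) they agreed in sign for 3 of 5, and the probes of miR-30b-5p (0.0025 and -0.26) and miR-30c (0.044 and -0.17) did not. The widest gap between the probes of a member was 0.069 in kidney, 0.27 in plasma, 0.33 between the tissues in CI-AKI rats and 0.14 in control rats.

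Across the 8 kidney arrays, the 5 microRNAs outside the family whose log2 values were most like the members' mean were miR-7a* (Pearson r = 0.949), miR-106b (0.946), miR-24 (0.896), miR-500 (0.854) and miR-103 (0.853) among 158 candidates. In plasma, over 8 arrays and 69 candidates, they were miR-22 (0.949), miR-26a (0.936), miR-29c (0.924), miR-27a (0.878) and miR-130a (0.869), so the lists had no name in common. By Spearman rank correlation miR-22 was the lowest of these 5 (0.619) and miR-26a the highest (0.833). The kidney signal of miR-7a* was low, with a mean log2 of 2.34 in CI-AKI and 2.05 in control. These values describe arrays that share treatment groups, slides and depth, and carry no test. Each member had 1 other member among its 5 nearest microRNAs in both tissues, except miR-30d in kidney, which had 0. In plasma the nearest member of miR-30a was miR-30e and that of miR-30b-5p was miR-30c, in each case mutually.

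The hairpins also give passenger strands, of which 6 were on the array. The 3 that RefSeq's table holds are shown with bases 2 to 8 in capitals, since these differ from the guides' seed.
miR-30a*: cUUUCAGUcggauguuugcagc
miR-30c-1*: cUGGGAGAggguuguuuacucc
miR-30c-2*: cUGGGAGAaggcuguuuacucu
After contrast medium, 0 of 4 tested passenger strands passed limma's test in kidney and 0 of 3 in plasma, against 1.7% and 0% of all tested. MiR-30a*, from the other arm of the miR-30a hairpin, had 212, 244, 284 and 233 scaled units in kidney CI-AKI and 215, 211, 245 and 240.0 in kidney control, on the scale within kidney. MiR-30e* had 227, 242, 278 and 239.9 in kidney CI-AKI and 216, 225, 244 and 245 in kidney control.

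The other scalings were not run for the passenger strands. Between the tissues and with the scaling used, miR-30a* was higher in kidney by 1.07 in CI-AKI rats and 0.74 in control rats on the log2 scale (limma, adjusted p = 0.00158 and 0.00537). MiR-30e* was higher by 0.70 and 0.58 (0.0108 and 0.00559). MiR-30c-1* had 1.18 to 2.22 scaled units in kidney CI-AKI against 15.2 to 54.1 in plasma CI-AKI, and 1.23 to 1.59 in kidney control against 13.3 to 47.1 in plasma control, all on the scale of all 16 arrays. Its groups were separate, but kidney CI-AKI pool 4 and kidney control pools 2 and 3 lay under the floor of 1.31 units, so no size or p is given for it. MiR-30c-2* differed by -0.68 and -0.71, which passed in control rats only (limma, adjusted p = 0.196 in CI-AKI rats and 0.0389 in control rats). The difference between these values was not tested. Its kidney and plasma pools overlapped in both treatments, and it was not detected on plasma pool 4 of either group. On plasma control pool 4 miR-30a* was not detected either. MiR-30c-1* was detected on 4 of 4 kidney CI-AKI, 3 of 4 kidney control, 3 of 4 plasma CI-AKI and 4 of 4 plasma control arrays.

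The kidney epithelium list gives the tissue difference of other kidney microRNAs on the same arrays. In CI-AKI rats 8 of 10 passed as higher in kidney (median difference 2.19) and in control rats also 8 of 10 (median 2.07). Only 3 of the 10 (miR-192, miR-10a-5p and miR-10b) were detected on 4 of 4 arrays of a plasma group. The others entered the test through kidney alone, which favours higher values in kidney in these counts and medians. Of all tested, 28.2% and 33.1% were called higher, with medians of -0.59 and -0.40. MiR-192 was higher by 1.07 and 0.66 in CI-AKI and control rats, miR-10a-5p by 1.22 and 0.92, and miR-10b by 2.00 and 1.78. MiR-194 was detected on 4 of 4 arrays in each kidney group and 2 of 4 in each plasma group, with plasma pool 4 of both groups at the floor, and such floor values are left in the medians. The 5 miR-30 members, detected on every array, had medians of 0.35 and 0.61 in those comparisons. Because of the detection rule, these cannot be set against the medians of the list. After contrast medium 0 of 10 of the list passed in kidney, with 8 of 10 means higher and a median of 0.040. Of all tested in kidney, 1.7% were called, 60.2% of means were higher and the median was 0.028.

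Of the 3 microRNAs the study followed up, miR-188 had a log2 difference, CI-AKI minus control, of 0.64 in plasma and 1.08 in kidney (limma, adjusted p = 0.836 and 0.169). Thus 0 of 3 passed in either tissue, miR-30a and miR-30e included, where 0% of all tested were called in plasma and 1.7% in kidney. The groups of miR-188 were separate in both tissues (limma, unadjusted p = 0.0280 in plasma and 0.00479 in kidney), against 5.21% and 5.11% of all tested. Those of miR-30a and miR-30e overlapped in both tissues. That list was chosen by the study on these or related samples and is no independent evidence of a direction.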

How the data were processed

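Spot intensity was read with Agilent Feature Extraction 10.7.3.1, per the file headers. The deposited files hold, for each spot, a processed intensity, a median intensity and a background, and for each microRNA a detection call. A series table that the authors deposited holds log2 values; the median of every column was 2.28, and each column correlated with its own array at 0.918 to 0.996. How it was normalized is not given in the sources used here, and it served as an alternative.

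The mean processed intensity over a probe's spots, outlier-flagged ones left out, was averaged over the 2 probes. The 75th percentile of each array, over the microRNAs detected on every array scaled together (163 in kidney, 74 in plasma, 65 over all 16), was set to the geometric mean of these percentiles. Values were floored at 1.79, 0.976 or 1.31 scaled units, and log2 was taken. A microRNA entered a test where it was detected on 4 of 4 arrays in 1 or more of the groups compared. Groups were compared in R 4.3.3 by the moderated two-sided test of limma 3.58.1; p-values were adjusted over all tested (Benjamini-Hochberg) and called under 0.05; scripts were tested on simulated data. The number of arrays limits the precision, and p-values measure the spread between pools of 3 rats. Exact permutation p-values of ratios were planned to be adjusted over the 10 pairs; they are given adjusted over all pairs instead, a change made afterwards. Normexp (offset 50) used median intensities, since the files hold no mean. Named are all 5 members, the passenger strands, up to 4 microRNAs per list and the 5 most alike by Pearson r. Members and lists were chosen with earlier results of these data known.

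Same-numbered plasma pools deviated together (correlation 0.224 to 0.619 over tested microRNAs; the numbers come from the titles, and such pools share a slide row), while those in kidney did not all do so (-0.0999 to 0.588). Tools were Python 3.11.15, pandas 2.3.3, numpy 2.4.6 and matplotlib 3.10.9.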

Additional observations from a re-analysis of the deposited data

Results flagged for a closer look

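In plasma of control rats, miR-30d in pool 1 was the lowest of the 4 pools, at 181 scaled units, far below the other pools at 283 to 307. Its gap to the nearest pool was 0.845 of the group's whole range, above the 95% critical value of Dixon's test for 4 samples. Of 20 groups examined (5 members in 4 groups) it was the 1 that stood out, and chance flags about 1 in 20. In the same pool miR-30a and miR-30e were also low, at 101 and 73.0, and in control pool 4 they were at 94.2 and 72.2. The difference of miR-30d between kidney and plasma in control rats was -0.61 with all pools. It was -0.78 without plasma control pool 1, and -0.42, which did not pass, without plasma control pool 4. Pool 1 was picked for its low value, so leaving it out favours a wider difference and is no test of it. The cause was not tested.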

How the results depend on the processing

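The number of pools, the weak pool 4 arrays in plasma and the scaling between tissues limit these results. After contrast medium, 0 of 5 members passed in each of the 23 alternatives in kidney, the 24 in plasma and the 30 for the difference between tissues. Between the tissues, 3 of 5 were called in control rats with the scaling used. That count was 1 without scaling and 5 (4 of them higher) in the authors' processed values, and 2 to 4 in the other alternatives. In CI-AKI rats it was 3, and 2 to 4 in the alternatives. The members called were not always the same. Over 6 other scalings in control rats, miR-30d passed in 1 and miR-30e, not called with the scaling used, in 5. Over all tested microRNAs in control rats the called count was 138 with the scaling used, 57 without scaling, 81 with normexp and 56 among those detected on every array; in CI-AKI rats it was 135, 82, 113 and 70. In kidney it was 3, and 0 to 4 otherwise (1 after quantile normalization or without scaling, 0 with normexp or the letter codes' treatment), and for the difference of differences 1, and 0 to 4 otherwise (4 without plasma CI-AKI pool 2). With the replicate block the members' counts were 0, 0, 3, 3 and 0 (kidney, plasma, CI-AKI tissues, control tissues, difference of differences), as without it, and no call of a member changed.

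These differences had the other sign than reported. For CI-AKI minus control in kidney, miR-30e was -0.055 after quantile normalization, -0.015 without scaling, -0.0086 by spike-in and -0.060 in the authors' values. With the brightest probe of every microRNA, miR-30e was -0.024 and miR-30d was -0.0054. Since 6 of the 8 letters carry opposite treatments, taking the letter codes' treatment swaps most arrays and tends to turn signs by construction. By the letter codes' treatment in plasma, the kidney differences were -0.024 for miR-30a, -0.082 for miR-30b-5p, -0.096 for miR-30c, -0.027 for miR-30d and -0.014 for miR-30e. In plasma, miR-30b-5p was 0.0011 by median scaling, 0.31 with normexp, 0.011 in the authors' values and 0.032 without both pool 4 arrays, and miR-30c was 0.10, 0.21, 0.038 and 0.13 there and 0.014 after quantile normalization. By the letter codes' treatment in kidney, plasma gave -0.45 for miR-30a, 0.12 for miR-30b-5p, 0.074 for miR-30c, -0.73 for miR-30d and -0.17 for miR-30e. For kidney minus plasma in control rats, miR-30b-5p was 0.55 by the 75th percentile over all microRNAs, 0.55 by the median, 0.65 by quantiles, 2.03 without scaling, 0.31 by spike-in, 0.054 by total signal, 0.52 in the authors' values and 0.049 without plasma pool 4, and miR-30d was 1.42 without scaling. In CI-AKI rats miR-30d was 1.09 without scaling, and with normexp miR-30b-5p was -0.44 and miR-30e -0.45. For the difference of differences, normexp gave -0.19 for miR-30b-5p and -0.14 for miR-30c.

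Leaving out each pool in turn gave -0.051 to 0.078 for miR-30e in kidney, -0.0998 to 0.11 for miR-30b-5p between tissues in control rats, and -0.12 to 0.20 for the ratio of miR-30b-5p over miR-30e in CI-AKI rats. Ratio pairs with separate treatment groups numbered 0 to 1 in kidney and 0 to 1 in plasma, the 1 being without control pool 4 of that tissue. The causes were not tested.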
